A study of Mus musculus with 9 samples.

Results

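The vomeronasal receptor genes of the mouse were followed through 9 NOMe-seq libraries of differentiating female embryonic stem cells. Members were all windows of the deposited table on the autosomes that overlapped the body of a gene whose GENCODE symbol starts with Vmn1r or Vmn2r. They numbered 1979 of 789851 autosomal windows, and 1962 had a value in every library, 729 on Vmn1r genes and 1233 on Vmn2r genes, with 0 windows shared between the subfamilies. The annotation held 326 autosomal Vmn1r genes on 10 chromosomes, 208 of them protein-coding, and 318 had at least 1 such window. It held 235 autosomal Vmn2r genes on 11 chromosomes, 121 of them protein-coding, and 234 had a window. Most of the remaining genes were annotated as pseudogenes, and 1 gene of each subfamily on the X chromosome was left out by the rule.

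NOMe-seq treats fixed nuclei with an enzyme that methylates cytosines in GpC where no nucleosome or other protein covers the DNA, so a higher percentage of GpC methylation marks more open chromatin. The cells were female embryonic stem cell lines from FVB/NJ dams crossed with CAST/EiJ sires, and both alleles were merged in the values used here. Libraries came from undifferentiated cells at day 0, and from differentiating cells at days 4, 5, 6 and 7 that carried either a non-silencing hairpin (Nons) or a hairpin against Smarcc1, a core subunit of the BAF nucleosome remodelling complex. Hairpins were introduced at day 2 of differentiation, followed by puromycin selection from day 3, and a single hairpin (Smarcc1.6) stood for the knockdown. Each condition and day was 1 library, so no value has a replicate, and SDs below are over libraries that differ in day and hairpin. Protein or RNA of Smarcc1 and markers of the cell state were not analysed here, so neither the knockdown nor the differentiation was checked.

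Vmn1r and Vmn2r genes encode the pheromone receptors of the vomeronasal organ. A Vmn1r receptor is read from a single coding exon, and its neurons signal through the G protein subunit Gnai2. A Vmn2r gene spans several exons that encode a large extracellular ligand-binding domain, and its neurons signal through Gnao1. Both subfamilies lie in tandem clusters, and each sensory neuron uses very few of their genes.

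The DNA around these genes was poor in GpC and CpG. Stretches of 250 bases upstream of the RefSeq gene start (build GRCm38.p6) are printed for a few named members, chosen to show how few target sites the enzyme has there, with every GpC in capitals. All are written 5′ to 3′ on the strand of the gene. Vmn2r1 encodes a family C receptor that accompanies other Vmn2r receptors in the same neuron. Vmn2r26 encodes a receptor for peptide ligands of the major histocompatibility complex, and Vmn2r116 encodes the receptor of the male tear peptide ESP1. Vmn2r44 and Vmn1r90 had the lowest gene body level among protein-coding genes of their subfamilies, of those with at least 5 windows for Vmn2r and 2 for Vmn1r.
Vmn2r1 (chr3:64081392-64081641, plus strand): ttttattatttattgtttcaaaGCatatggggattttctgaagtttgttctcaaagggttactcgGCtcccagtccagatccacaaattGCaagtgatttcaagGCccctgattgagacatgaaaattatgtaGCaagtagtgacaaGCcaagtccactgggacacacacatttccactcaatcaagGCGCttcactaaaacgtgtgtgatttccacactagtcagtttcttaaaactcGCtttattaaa
Vmn2r26 (chr6:124024508-124024757, plus strand): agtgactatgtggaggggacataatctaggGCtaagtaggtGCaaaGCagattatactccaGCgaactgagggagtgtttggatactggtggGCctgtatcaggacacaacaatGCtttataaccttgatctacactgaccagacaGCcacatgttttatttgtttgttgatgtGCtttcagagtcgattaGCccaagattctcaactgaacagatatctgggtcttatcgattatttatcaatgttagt
Vmn2r116 (chr17:23384553-23384802, plus strand): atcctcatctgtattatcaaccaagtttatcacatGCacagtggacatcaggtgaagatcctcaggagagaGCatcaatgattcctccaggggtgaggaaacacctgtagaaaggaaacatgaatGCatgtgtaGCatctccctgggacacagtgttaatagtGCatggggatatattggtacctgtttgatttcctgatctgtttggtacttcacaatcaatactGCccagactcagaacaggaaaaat
Vmn2r44 (chr7:8383239-8383488, minus strand): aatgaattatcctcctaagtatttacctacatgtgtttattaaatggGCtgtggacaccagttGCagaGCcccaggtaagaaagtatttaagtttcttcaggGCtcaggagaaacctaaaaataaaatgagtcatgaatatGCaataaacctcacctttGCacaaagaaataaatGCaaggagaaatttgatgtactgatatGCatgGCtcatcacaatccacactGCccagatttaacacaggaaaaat
Vmn1r90 (chr7:14562172-14562421, minus strand): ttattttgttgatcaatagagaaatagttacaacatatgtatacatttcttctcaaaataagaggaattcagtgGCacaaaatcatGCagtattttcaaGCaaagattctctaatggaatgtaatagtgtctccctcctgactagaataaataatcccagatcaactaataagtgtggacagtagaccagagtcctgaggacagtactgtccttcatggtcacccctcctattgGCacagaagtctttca

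The 250 bases held 9 GpC in Vmn2r1, 9 in Vmn2r26, 6 in Vmn2r116, 10 in Vmn2r44 and 4 in Vmn1r90. Over the RefSeq starts of 206 autosomal Vmn1r genes the median was 5 GpC, and over 117 starts of Vmn2r genes it was 8, against 16 over all 31396 autosomal starts. CpG was absent from 26.2% of the Vmn1r stretches and 36.8% of the Vmn2r stretches, against 7.64% of all. Of the 559 member symbols, 298 had a RefSeq start. For the named Vmn1r genes that had one, it lay 1335 to 9958 bases from the GENCODE 5′ end. The shortest of these distances, 1335 bases, was that of Vmn1r90.

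A single window covered each printed stretch, and its percentages varied widely between libraries. The Vmn2r1 window (chr3:64080813-64084297) measured 14.6% in undifferentiated cells. Under the non-silencing hairpin it measured 21.1, 18.6, 10.13 and 3.97% from day 4 to day 7, and under knockdown 15.9, 25.8, 12.5 and 12.3%. The Vmn2r116 window (chr17:23380975-23385990) measured 9.72% in undifferentiated cells, then 12.2, 19.6, 5.41 and 4.67% under Nons and 1.94, 7.35, 8.70 and 10.7% under knockdown. It was below the autosomal median in 8 of 9 libraries, and the Vmn2r1 window was below in 3 of 9. The Vmn1r90 window (chr7:14560137-14564201) was below in 9 of 9, with its highest value, 18.6%, in the knockdown library of day 5 and its lowest, 2.11%, in that of day 7. The Vmn2r44 window (chr7:8382780-8386924) ranged from 0% in knockdown day 6 to 19.05% in Nons day 5 and was below in 8 of 9.

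Windows on the receptor genes differed from other windows in their sequence. Member windows had a median length of 3952 bp and other genic windows of 2612 bp. Their GC content was 37.9% against 43.5%, and CpG density was 3.93 against 8.86 per kb. GpC sites that the assay can score, those followed by A, C or T, numbered 61.8 per kb on either strand against 86.4. Each window nevertheless spanned a like number of such sites, a median of 233 for members and 224 for other genic windows. Windows with 300 or more sites, where part of the sequence gave no call, made up 10.7% of Vmn1r, 16.0% of Vmn2r and 2.64% of other genic windows. Values of near-identical receptor genes are uncertain, since reads shared between copies cannot be told apart in these files. Olfactory receptor (Olfr) windows, 3467 in number, were most like the members, with a median length of 3704 bp and a GC content of 37.9%.

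Both subfamilies were slightly less methylated at GpC than the typical autosomal window. Whether reads shared between near-identical copies contribute to this was not tested. Vmn1r windows had a median of 10.8% in undifferentiated cells. From day 4 to day 7 it was 13.2, 19.8, 9.09 and 5.63% under Nons and 9.68, 19.1, 10.8 and 6.06% under knockdown. Vmn2r windows also had a median of 10.8% in undifferentiated cells, followed by 13.98, 20.7, 9.30 and 5.67% under Nons and 10.97, 20, 11.1 and 6.06% under knockdown. Over all autosomal windows the median was 11.3% at day 0, and it ran from 6.41% (Nons day 7) to 21.2% (Nons day 5) afterwards. The libraries therefore differed widely in overall level, and the members moved with them. The level of a set is given from here on as the log2 ratio of its median to the autosomal median of the same library.

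On that scale Vmn1r windows averaged −0.14 ± 0.06 (SD, n = 9 libraries) and lay below 0 in 9 of 9 libraries. Vmn2r windows averaged −0.09 ± 0.08 and lay below 0 in 8 of 9, the exception being Nons day 4 at 0.00. Against other genic windows weighted to the same lengths, the ratios were −0.15 ± 0.06 for Vmn1r and −0.09 ± 0.07 for Vmn2r, below 0 in 9 of 9 libraries for each. With the reference matched on GC content as well as length they were −0.16 and −0.12. Olfr windows, the other large family of chemosensory receptors, were themselves low. Against them the Vmn1r ratio was −0.08, below 0 in 8 of 9 libraries, and the Vmn2r ratio was −0.03, below 0 in 4 of 9. The Vmn2r level thus differed from that of the olfactory receptor genes by less than the spread between libraries. In a bulk library a lower percentage may come from fewer cells with open DNA or from less opening in each cell, and these cannot be told apart.

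**Figure D1:**
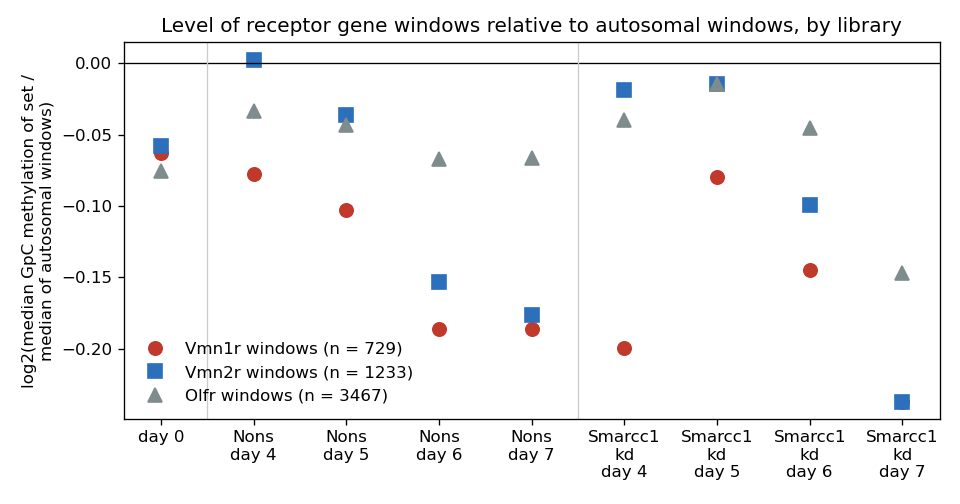
Level of Vmn1r (circles), Vmn2r (squares) and Olfr (triangles) windows in each of the 9 libraries, as log2 of the set's median GpC methylation over the autosomal median, with 1 point per set and library (at knockdown day 7 the square covers the circle, both at −0.24). Vmn1r points lie below 0 in 9 of 9 libraries, and the Vmn2r points of days 6 and 7 lie below those of days 4 and 5.

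The gap between receptor genes and other genes was present at each level of GC content. Windows were split into 4 groups at the quartiles of the members. In the group with the lowest GC (29.5 to 35.8%), other genic windows averaged a log2 ratio of 0.10, Vmn1r windows −0.05 and Vmn2r windows −0.02. In the group with the highest GC (39.8 to 54.5%), other genic windows averaged 0.01, Vmn1r windows −0.18 and Vmn2r windows −0.20. Vmn1r and Vmn2r were thus below other genic windows in each group, and both were lowest where GC was highest. Windows without a protein-coding member were no higher than the others. For Vmn1r the ratio was −0.19 ± 0.07 over 128 windows without a protein-coding member and −0.13 ± 0.07 over 601 windows with one. For Vmn2r it was −0.09 in both kinds of window.

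Receptor genes sit in 39 clusters when neighbours up to 1 Mb apart are joined, and 18 clusters with at least 20 windows held 1855 member windows. Of these 18 clusters, 16 had a mean ratio below 0 and 8 were below 0 in at least 8 of 9 libraries. The lowest was a Vmn1r cluster on chromosome 6 (chr6:89698719-90271213, 23 genes, 77 windows) at −0.26 ± 0.11, below 0 in 9 of 9 libraries. Vmn1r49, which encodes a receptor responsive to the urinary odorant 2-heptanone, lies in it. The Vmn1r cluster on chromosome 13 (chr13:22057346-23269474, 70 genes, 157 windows) was at −0.14 ± 0.07, also in 9 of 9. On chromosome 7 a Vmn1r cluster of 78 genes (chr7:20099680-24063554) was at −0.22 ± 0.24, and a small mixed cluster of 15 genes (chr7:5129291-6011010) at −0.23 ± 0.26. These 2 clusters had the widest spread of the 18. The first was at −0.78 in knockdown day 7, and the second was at −0.67 in knockdown day 6 and −0.56 in Nons day 7.

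The cluster with the most genes, 46 Vmn1r and 44 Vmn2r on chromosome 7 (chr7:7153687-13244362, 285 windows), was at −0.16 ± 0.12. The mixed cluster of 60 genes on chromosome 17 (chr17:17703747-21323766, 309 windows) was at −0.07 ± 0.14, below 0 in 6 of 9 libraries. Vmn2r clusters on chromosome 5 (chr5:108791843-109578589) and chromosome 7 (chr7:41395945-42933822) were at −0.17 ± 0.15 and −0.16 ± 0.12. A Vmn2r cluster on chromosome 17 (chr17:22544504-23479699), which holds Vmn2r116, was at −0.13 ± 0.08. The cluster on chromosome 3 (chr3:64053031-64899762), which holds the family C genes Vmn2r1 to Vmn2r7, was at −0.04 ± 0.11.

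Only 2 of the 18 clusters averaged above 0, and both overlapped 0 within their SD. A Vmn2r cluster on chromosome 13 (chr13:65353256-66873358, 26 windows) was at 0.08 ± 0.13, and its windows spanned a median of 474.5 scorable GpC sites, so much of its sequence gave no call. A cluster of 4 Vmn2r genes on chromosome 10 (chr10:130377925-130497396) was at 0.00 ± 0.21. The other Vmn1r clusters of chromosome 6, with 44 and 9 genes, were at −0.07 ± 0.07 and −0.07 ± 0.12. Among the other Vmn2r clusters, those of chromosome 5 (3 genes) and chromosome 6 (13 genes) were at −0.15 ± 0.15 and −0.05 ± 0.09. Those of chromosome 7 (38 genes) and chromosome 10 (5 genes) were at −0.04 ± 0.12 each. Outside the 18 clusters, 10 windows on 8 Vmn2r genes of chromosome 4 stood at 0.31 ± 0.20, above 0 in 9 of 9 libraries. The 6 of these windows at chr4:145775612-147521912 spanned a median of 459.5 scorable GpC sites, so much of their sequence gave no call.

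**Figure D2:**
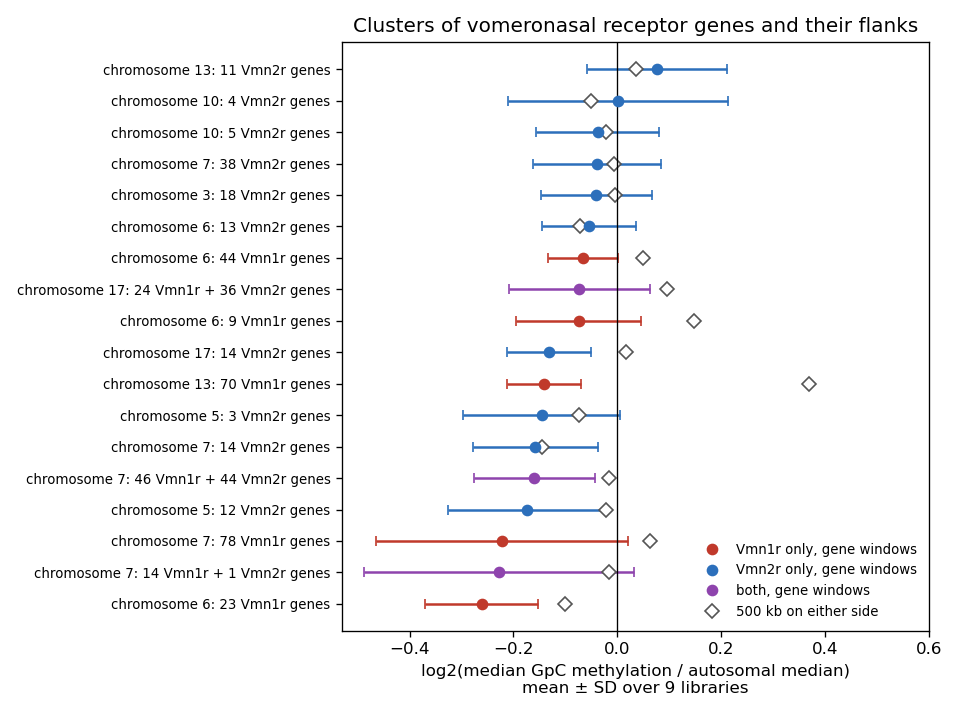
Mean log2 ratio to the autosomal median for the gene windows of 18 clusters (filled points, bars ± SD over 9 libraries) and for windows within 500 kb on either side (open diamonds, mean). The gene windows lie to the left of their flanks in 15 of the 18 clusters, by the most at the chromosome 13 cluster of 70 Vmn1r genes.

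Pooled over the 18 clusters, the lower level began at the cluster edge. Non-member windows 100 to 500 kb outside the outermost gene averaged between 0.01 and 0.02. The last 100 kb before the edge was at −0.01 ± 0.03, and the first 100 kb inside was at −0.09 ± 0.05, below 0 in 9 of 9 libraries. Further inside, up to 500 kb, the level stayed between −0.11 and −0.08, below 0 in 8 or 9 libraries. Short clusters dropped out there, leaving 16 clusters from 100 to 200 kb and 13 from 400 to 500 kb. Inside the edge all windows were counted, those between the genes included, and in 15 of 18 clusters the non-member windows between genes were also below the flank. Taken singly, 15 of 18 clusters had gene windows lower than their flanks. The step was largest at the chromosome 13 Vmn1r cluster, whose flanks were at 0.37 ± 0.06. Its members were at −0.14 and its windows between genes at −0.09. By contrast, chr7:41395945-42933822 had flanks (−0.14) close to its genes (−0.16). The chromosome 6 cluster of 13 Vmn2r genes had flanks (−0.07) no higher than its genes (−0.05). At the lowest chromosome 6 cluster the flanks (−0.10) were low too, and the windows between genes (−0.29) were as low as those on genes. Other clusters went either way. Windows between genes were lower than those on genes at the chromosome 7 cluster of 78 genes (−0.28 against −0.22) and the chromosome 17 cluster of 60 genes (−0.12 against −0.07). They were higher at chr7:41395945-42933822 (−0.03 against −0.16) and chr5:108791843-109578589 (−0.11 against −0.17).

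**Figure D3:**
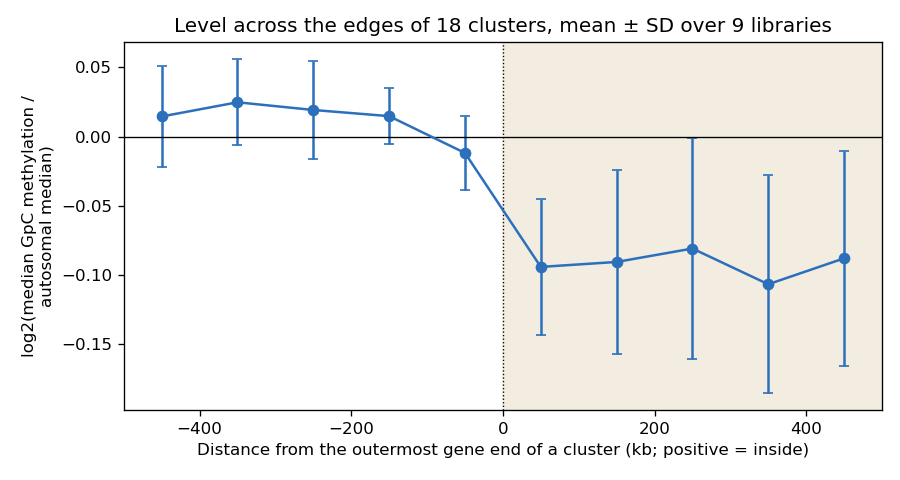
Log2 ratio of median GpC methylation to the autosomal median in 100 kb bins across the edges of 18 clusters, with distance from the outermost gene end on the x axis (shaded: inside) and bars showing ± SD over 9 libraries. The level drops from −0.01 in the last bin outside to −0.09 in the first bin inside. It stays near that value further inside, where fewer clusters contribute (13 in the last bin).

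Windows at gene starts were barely distinguishable from other windows on the genes in either subfamily. Start site windows, those holding an annotated 5′ end, numbered 303 for Vmn1r and 228 for Vmn2r. The log2 ratio of their median to that of the other member windows was 0.03 ± 0.07 for Vmn1r, above 0 in 6 of 9 libraries, and 0.06 ± 0.08 for Vmn2r, also in 6 of 9. The receptor starts included those of genes that are not protein-coding. With protein-coding members only, the ratios were 0.04 ± 0.08 for Vmn1r and 0.03 ± 0.10 for Vmn2r. Over other autosomal protein-coding genes, Olfr genes included, the same ratio was 0.45 ± 0.04, above 0 in 9 of 9. At Nons day 5, the library with the highest autosomal median, start windows of Vmn1r genes were at 19.7% and of Vmn2r genes at 20.3%, while those of other protein-coding genes were at 30.7%. For Olfr genes, the most similar family, the ratio was 0.02 ± 0.03. Start windows had a median length of 3929 bp for Vmn1r and 4492.5 bp for Vmn2r. An opening confined to a promoter could be missed in windows of that length.

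Receptor start windows held 4.12 (Vmn1r) and 3.84 (Vmn2r) CpG per kb, against 24.8 at the starts of protein-coding genes outside the receptor families. Start windows of those outside genes had a median length of 2287 bp. The comparison was therefore repeated, after these values were seen, against start windows of such genes weighted to the same CpG density and length. The Vmn1r starts were then at −0.06 ± 0.06, below 0 in 7 of 9 libraries, and the Vmn2r starts at 0.03 ± 0.10, below 0 in 3 of 9. The CpG-poor starts used for comparison were also low, at −0.07 relative to all autosomal windows. Along Vmn2r genes, which have a median length of 27146 bp when protein-coding, windows within 10 kb of the 5′ end were near the autosomal median, at −0.05, −0.02 and −0.04 in successive distance bins. Those 10 to 20 kb and 20 to 40 kb downstream were at −0.13 ± 0.11 and −0.11 ± 0.08. Along Vmn1r genes the corresponding values were −0.09 up to 1 kb, −0.14 from 1 to 5 kb and −0.16 from 5 to 10 kb.

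**Figure D4:**
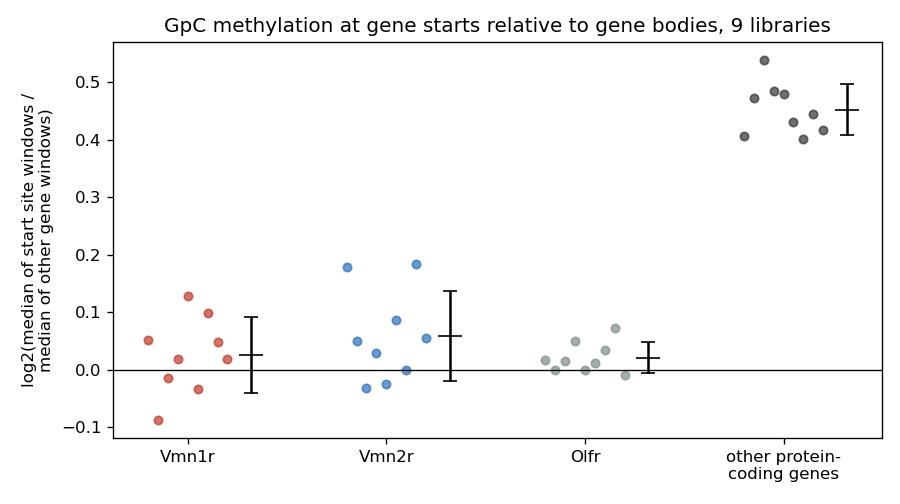
Log2 ratio of the median GpC methylation of start site windows to that of other windows of the same genes, with 1 point per library and mean ± SD at the right of each group. Groups are Vmn1r, Vmn2r, Olfr and other protein-coding genes, the last being all but Vmn1r and Vmn2r, with Olfr genes included. Receptor genes scatter around 0, whereas other protein-coding genes lie between 0.40 and 0.54 in the 9 libraries.

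On the log2 scale the receptor genes stood lower at days 6 and 7 than at days 4 and 5, a comparison chosen after the values were seen. For Vmn2r windows the ratio at days 4 and 5 ran from −0.04 to 0.00 over the 4 libraries of both arms, and at days 6 and 7 from −0.24 to −0.10, so the periods did not overlap. The late minus early difference was −0.15 in Nons and −0.15 in knockdown. For Vmn1r windows the periods overlapped, with −0.20 to −0.08 early and −0.24 to −0.14 late, and the differences were −0.10 in Nons and −0.05 in knockdown. At day 0 each subfamily was at −0.06, above the late values of both. In percentage points, the difference of the Vmn2r median from the autosomal median ran from −0.52 to 0.03 at days 4 and 5 and from −1.08 to −0.74 at days 6 and 7. For Vmn1r it ran from −1.46 to −0.73 early and from −1.25 to −0.78 late. In points the late Vmn1r values were therefore within the early range. On the log2 scale Olfr windows were also lower late, without overlap between the periods, with differences of −0.03 in Nons and −0.07 in knockdown. In points the Olfr periods overlapped, with −0.62 to −0.20 early and −0.69 to −0.29 late. By log2 ratio, 15 of the 18 clusters were lower late than early. The overall level of the libraries moved with the period: autosomal medians were 11.1 to 21.2% at days 4 and 5 and 6.41 to 11.9% at days 6 and 7, and the part of this in the result was not tested. Family C genes (96 windows) had ratios of −0.04 and 0.12 under Nons at days 6 and 7, against −0.16 and −0.22 for other protein-coding Vmn2r genes. Under knockdown they were at −0.08 and −0.13, against −0.12 and −0.23, and the difference between the families was not tested. Of the 96 windows, 43 lay on the GENCODE body of Vmn2r7, most of which lies upstream of its RefSeq start.

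Gene by gene, most receptor genes lay below the typical gene. For each gene the mean percentage over its windows was taken as log2(percent + 1), the median over genes of that library was subtracted, and limma tested whether the mean over 9 libraries differed from 0, with Benjamini-Hochberg adjustment over 35582 genes with at least 2 windows. Of the members, 172 Vmn1r and 176 Vmn2r genes entered, and 213 genes with fewer windows did not. Below 0 were 162 of the 172 Vmn1r genes and 164 of the 176 Vmn2r genes, against 54.8% of all genes. The median was −0.21 for Vmn1r, −0.16 for Vmn2r and −0.02 for all genes. Of 1138 Olfr genes in the same fit, 84.4% were below 0, with a median of −0.15. At an adjusted p under 0.05, 32 Vmn1r and 24 Vmn2r genes were lower (18.6% and 13.6%), against 6.46% of all genes. In the other direction 0 Vmn1r genes and 1 Vmn2r gene were higher, against 9.85% of all genes. Of the Olfr genes, 9.40% were lower and 4 genes were higher. The libraries served as the repeats of this test although they differ in day and hairpin, so its error holds both.

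**Figure D5:**
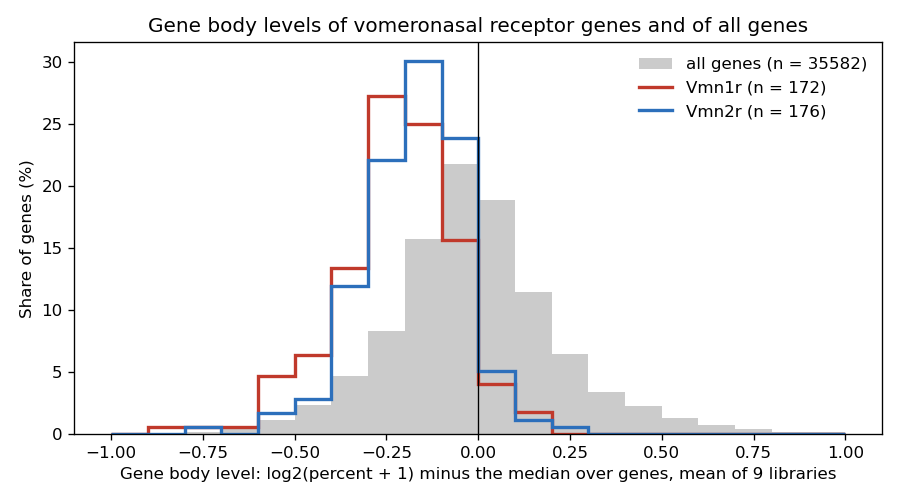
Distribution of gene body levels, the mean over 9 libraries of log2(percent + 1) minus the median over genes, for 172 Vmn1r genes (red), 176 Vmn2r genes (blue) and 35582 genes in all (grey), as the share of genes per bin of 0.1. The receptor genes are shifted to the left, with medians of −0.21 and −0.16, and have almost no members above 0.1.

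Members were also called among genes with more windows. Among genes with 10 to 50 windows, 10 of 43 Vmn2r genes were called lower (23.3%), against 6.36% of all genes of that size. Among genes with 5 to 9 windows, 10 of 29 Vmn1r genes (34.5%) and 9 of 71 Vmn2r genes (12.7%) were called, against 5.52%. With 2 windows, 7 of 49 Vmn1r genes (14.3%) and 2 of 33 Vmn2r genes (6.06%) were called, against 6.05%. In that group 64.6% of all genes lay below 0, against 93.9% of Vmn1r and 90.9% of Vmn2r genes. The calls were spread over many clusters, and the lowest chromosome 6 cluster had 9 of 17 tested genes called. Without the knockdown library of day 4 the count of 56 fell to 29 (all genes, 3.93%), without Nons day 4 to 32 (3.79%), without Nons day 6 to 34 (4.70%) and without Nons day 5 to 36 (4.09%).

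Among Vmn1r genes, Vmn1r50 had the smallest adjusted p of all members, and it is singled out here after its values were seen. This gene (chr6:90101430-90109109) had a gene mean of 9.39% in undifferentiated cells, then 10.98, 16.4, 6.11 and 5.21% under Nons and 8.07, 15.8, 9.88 and 5.12% under knockdown. Its level was −0.48 ± 0.05 (SE, limma adjusted p = 0.000985), below 0 in 9 of 9 libraries. Its neighbour Vmn1r49 (chr6:90071893-90078506), with 3 windows, stood at −0.30 ± 0.10 and did not pass (adjusted p = 0.0654).

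Of the protein-coding Vmn1r genes with the lowest levels, Vmn1r90 (chr7:14555474-14563506, 3 windows) was at −0.61 ± 0.15 (limma adjusted p = 0.0242). Its gene mean was 7.77% in undifferentiated cells, then 14.7, 11.8, 5.90 and 7.08% under Nons and 5.37, 15.2, 4.07 and 7.82% under knockdown. It was below the median gene in 9 of 9 libraries, by the least at Nons day 7 and by the most at knockdown day 6. Vmn1r180 (chr7:23950632-23955691, 2 windows) was at −0.57 ± 0.15 (adjusted p = 0.0277). The other 2 lowest protein-coding genes had 2 windows each and did not pass, Vmn1r3 at −0.56 ± 0.18 and Vmn1r208 at −0.54 ± 0.31. Some pseudogenes with 2 windows were lower still, down to −0.80. Vmn1r85, a receptor that responds to sulphated steroids, was at −0.35 ± 0.10 (adjusted p = 0.0362), and its relative Vmn1r89 was at −0.17 ± 0.13 and did not pass. The 4 protein-coding Vmn1r genes with the highest levels, Vmn1r80, Vmn1r1, Vmn1r189 and Vmn1r10, ranged from 0.17 to 0.04 and none passed.

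Among Vmn2r genes with at least 5 windows, Vmn2r44 (chr7:8366164-8383333) was lowest at −0.48 ± 0.13 (limma adjusted p = 0.0341). The mean over its 5 windows was 9.44% in undifferentiated cells, then 16.5, 22.2, 7.22 and 3.37% under Nons and 8.30, 19.9, 7.14 and 3.10% under knockdown. Vmn2r58 (chr7:41835814-41872712, 9 windows) was at −0.33 ± 0.08 (adjusted p = 0.0224) and below the median gene in 9 of 9 libraries. Vmn2r51 was at −0.35 ± 0.11 (adjusted p = 0.0479), and Vmn2r67 at −0.38 ± 0.16 did not pass. The ESP1 receptor gene Vmn2r116 (chr17:23384604-23404422, 6 windows) was at −0.32 ± 0.07 (adjusted p = 0.0193), below in 8 of 9 libraries. Vmn2r26, the receptor for peptide ligands, was at −0.15 ± 0.07 over 13 windows and did not pass.

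The family C genes named here, Vmn2r1, Vmn2r2, Vmn2r3 and Vmn2r7, were spread around the typical gene. Vmn2r3 was named for its high level, and the other family C genes are not given singly. Vmn2r3 (chr3:64257215-64289709, 9 windows) was the 1 member called higher, at 0.21 ± 0.06 (limma adjusted p = 0.0369). Its gene mean was 15.0% in undifferentiated cells, then 17.0, 27.6, 15.1 and 8.0% under Nons and 13.7, 22.6, 12.5 and 12.4% under knockdown. It lay above the median gene in all libraries but knockdown day 6, and the call was lost when any library other than that one was left out. Vmn2r2 was at −0.02 ± 0.05 and Vmn2r1 at −0.06 ± 0.08. Vmn2r7 (chr3:64685044-64844765), the longest by windows with 43, was at −0.19 ± 0.05 (adjusted p = 0.0288) and below in 9 of 9 libraries. Its RefSeq start lay 125163 bases from the GENCODE 5′ end, so most of this body lies upstream of the RefSeq gene. The next 3 protein-coding Vmn2r genes by level among those with at least 5 windows, Vmn2r109, Vmn2r77 and Vmn2r2, lay between −0.02 and 0.06.

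Knockdown of Smarcc1 was compared with Nons at the same day. The ratio of Vmn1r windows to the autosomal median differed by −0.12, 0.02, 0.04 and −0.05 (knockdown minus Nons) at days 4, 5, 6 and 7, a mean of −0.03 ± 0.07 (SD, n = 4 days). For Vmn2r windows the differences were −0.02, 0.02, 0.05 and −0.06, a mean of 0.00 ± 0.05. Each subfamily was thus lower in knockdown at days 4 and 7 and higher at days 5 and 6. The means over days were smaller than their SD. Among single days, only day 4 for Vmn1r and, narrowly, days 6 and 7 for Vmn2r were larger than it. The median difference over member windows was −3.12, −0.58, 1.59 and 0.02 percentage points on the successive days, against −2.80, −1.07, 1.5 and 0.66 over autosomal windows. The shift at day 4, with 68.0% of member windows lower in knockdown, was shared by the autosomes, where 66.0% were lower.

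Window by window, limma with day as a block called 0 of 829493 windows at an adjusted p under 0.05 (background 0%), and the smallest adjusted p was 0.995. At an unadjusted p under 0.05, 41 of 1962 member windows were lower in knockdown and 25 were higher, 2.09% and 1.27%, against 2.65% and 1.58% of all windows. Gene by gene, 0 of 348 members and 0 of 35582 genes passed the adjustment, and the smallest adjusted p was 0.938. At an unadjusted p under 0.05, 10 members were lower and 10 higher, 2.87% each, against 2.75% and 2.4% of all genes. The shares of members were therefore near the background in both fits. With 4 pairs of single libraries only very large differences could have been called.

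The 3 members with the smallest unadjusted p in each direction are given as values. Vmn1r89 was at 12.9, 28.0, 13.7 and 7.91% in Nons at days 4 to 7 and at 5.95, 13.0, 13.0 and 6.28% in knockdown, with differences of −6.98, −15.0, −0.71 and −1.63 points. Its log2 difference was −0.60 ± 0.15 (SE, limma adjusted p = 0.938). Vmn1r9 was at 13.8, 32.6, 13.6 and 7.33% in Nons and at 6.65, 20.4, 13.0 and 5.82% in knockdown, a difference of −0.48 ± 0.11. Vmn2r-ps114, a pseudogene on chromosome 17, differed by −0.48 ± 0.12. In the other direction Vmn2r-ps47, a pseudogene on chromosome 7, differed by 0.40 ± 0.12, Vmn2r30 by 0.37 ± 0.12 and Vmn1r225 by 0.46 ± 0.16. Vmn1r225 was at 12.2, 17.6, 10.37 and 6.02% in Nons and at 15.7, 25.9, 11.4 and 11.4% in knockdown, higher at each day. None of the 6 passed the adjustment (limma adjusted p = 0.938 for each).

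Other genes of the vomeronasal system were read from the same fits. Of 15 genes for signalling, wiring and development of these neurons, 4 were lower than the median gene, 3 were higher and 8 did not pass, with a median level of −0.01, where 6.46% of all genes were lower and 9.85% higher. Gnai2, the G protein subunit of Vmn1r neurons, was higher at 0.29 ± 0.08 (limma adjusted p = 0.0405), and Gnao1, that of Vmn2r neurons, was lower at −0.20 ± 0.05 (adjusted p = 0.0190). Trpc2, the cation channel of vomeronasal transduction, was at −0.03 ± 0.06, and Omp, the olfactory marker protein, at −0.35 ± 0.22 with 2 windows, and neither passed. Of the 9 H2-Mv genes, whose products accompany some Vmn2r receptors, 7 were tested and 1 was lower, H2-M10.3 at −0.53 ± 0.11 (adjusted p = 0.0112), with a median of −0.29 over the 7. Of the 7 formyl peptide receptor genes, some of which are used in vomeronasal neurons, 3 had enough windows and 0 passed, with a median of −0.13. By knockdown, 0 of these genes passed at an adjusted p under 0.05 in limma, and 2 of 15, 1 of 7 and 1 of 3 tested genes of the 3 lists did at an unadjusted p under 0.05, against 2.75% (lower) and 2.4% (higher) of all genes.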

How the data were processed

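The authors fixed the cells, treated them with a GpC methyltransferase and bisulfite, sequenced 75 bp read pairs, aligned them with Bismark to mm10 with FVB/NJ and CAST/EiJ variants masked, and kept informative GpC positions. The deposited table gives the percent GpC methylation per window, with both alleles merged. Windows were named by the authors for 200 read positions each. The values were not normalized between libraries. Depth is unknown, so no counting interval is given.

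Gene bodies came from GENCODE M21, and sequence from GRCm38.p6, which covers the coordinates of 833044 windows on chromosomes 1 to 19 and X. Sets were summarised by medians over windows with 9 values. Genic references were weighted to the member lengths in 20 bins. Gene means with a pseudocount of 1 percent, and single windows, were tested with limma 3.58.1 in R 4.3.3. The gene fits, but not the window fit, were also run on simulated data. Named genes were 8 chosen by function, the 4 highest and 4 lowest protein-coding genes of each subfamily (at least 5 windows for Vmn2r, 2 for Vmn1r), any called for knockdown, and the 3 with the smallest knockdown p in each direction. Members, lists and rules were chosen with earlier results of these data known. Alternatives covered summary, window filters, normalization, reference and left-out libraries.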

Additional observations from a re-analysis of the deposited data

How the results depend on the processing

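The mean Vmn1r and Vmn2r levels were below 0 under each alternative run, though Vmn2r was then below 0 in fewer libraries in some of them, 6 of 9 without chromosome 7. Against autosomal windows 8 other settings gave −0.15 to −0.13 for Vmn1r and −0.10 to −0.07 for Vmn2r, and leaving out each library gave −0.15 to −0.13 and −0.10 to −0.07. With olfactory receptor windows as the reference the value was −0.050 for all members, −0.083 for Vmn1r and −0.029 for Vmn2r, the last below 0 in 4 of 9 libraries. Restricting to windows with under 300 scorable GpC sites, chosen after seeing the data, gave −0.14 and −0.08. Over left-out libraries, members called lower per gene ranged from 29 to 44 (all genes, 3.79 to 5.20%) and members called higher from 0 to 1. For the knockdown, the adjusted count stayed at 0 under each alternative run. At an unadjusted p under 0.05 the genes called higher were 2 in percentage points without centring, 6 with at least 5 windows and 4 to 11 over left-out days. Over left-out days the windows called lower ranged from 25 to 60 and those called higher from 19 to 45. Without day 4 there were 25 lower and 45 higher (1.27% and 2.29%), and all windows turned the same way (1.73% and 2.52%). The mean knockdown difference changed sign when days were left out, from −0.05 to 0.00 for Vmn1r and from −0.02 to 0.02 for Vmn2r, within its SD over days. Single libraries per condition and unknown depth limit all values.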
